A study of Danio rerio with 2 samples.

Results

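The miRNAs described here are those known for inflammation and immune cells, namely miR-21, miR-146a, miR-146b, miR-155, miR-223, miR-150 and miR-462. They were found by name, taking miR-21, miR-146, miR-155, miR-223, miR-142, miR-150, miR-462 and miR-731 with any letter or none. Of these 8 names 6 gave entries, 7 entries in all out of the 173 miRNAs listed, whereas miR-142 and miR-731 were not analysed here. The small RNAs of whole zebrafish embryos of the AB strain were sequenced at 48 hpf (hours post fertilization), in 1 library from embryos injected with MO-Tbx5a and in 1 library from embryos injected with the control morpholino MO-Ct. Morpholinos are antisense oligomers that block a transcript, here that of the heart and fin transcription factor Tbx5a, and the labels give 1.5 ng of either morpholino at the 1-cell stage and RNA from 50 embryos a sample. The published description of the study adds 1.5 ng of a morpholino against the paralog Tbx5b. In it the controls received MO-Ct in the amount of both Tbx5 morpholinos together, which is more than the labels give. It also adds a selection under the microscope of embryos with the heartstring phenotype (hts), a stretched and unlooped heart. The MO-Tbx5a library therefore represents selected, defective embryos, and the selection cannot be told apart from the injection. Small RNA libraries show neither the Tbx5 transcripts nor the protein, so the depletion of Tbx5 was not checked.

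miRNAs pair with transcripts through a short seed near their 5′ end and lower the stability or translation of those transcripts. In immune signalling several of them act as brakes. In mammals miR-146 is induced by NF-kB and represses TRAF6 and IRAK1, the adaptor and kinase that lead to NF-kB, and miR-155 is induced in activated macrophages and lymphocytes. miR-223 is a miRNA of the myeloid lineage that restrains neutrophils, also in zebrafish, and miR-150 is most abundant in mature lymphocytes of mammals. miR-462 is made in fish together with miR-731, the pair being related to miR-191 and miR-425 of mammals, and is induced in fish by viral infection and interferon. miR-21 is induced in many inflamed tissues of mammals, but in zebrafish it also has a role in the heart, where blood flow induces it in the endocardium of the forming valves.

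The 7 entries stand for 9 hairpin loci, all of which matched the RefSeq annotation of the GRCz12tu assembly, as 8 distinct genes on 8 different chromosomes. The values join mir-21-1, which lies between rps6kb1a and ptrh2, with mir-21-2, which lies between vmp1 and tubd1, so the loci could not be separated. mir-146b-1 and mir-146b-2 are joined as well, and the annotation gives both names to 1 gene between pcyox1l and ppp2r2bb. mir-146a lies next to sufu and mir-155 next to mrpl39. mir-150 lies within bcl2l12 and also within a gene known only by an identifier, and mir-223 lies within another such gene. mir-462 lies between impdh2 and dalrd3 beside mir-731, with 0 other genes starting between them.

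The level of a miRNA is given in rpm, its reads scaled to the same total in either library. Whole reads could be recovered from the rpm of all 173 miRNAs, 580312 reads in total for MO-Tbx5a and 1150157 for MO-Ct. FC is the rpm of MO-Tbx5a embryos divided by that of MO-Ct embryos. Values in brackets are 95% exact (Clopper-Pearson) intervals that cover the counting error of reads only. They take every read as independent, which PCR copies of a molecule are not, so they may be too narrow. With 1 library a condition there is no replicate check and no test of the conditions. The embryos were sequenced whole, so fewer cells of a type and less miRNA per cell cannot be told apart.

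Of the 7 miRNAs, 5 were higher in MO-Tbx5a embryos with an interval above 1, miR-462, miR-146a, miR-21, miR-155 and miR-146b. Among all 162 miRNAs above 0 in both libraries, 29 (17.9%) had such an interval, and 53 (32.7%) had a FC above 1. miR-150 was lower with an interval below 1, as were 74 of the 162 miRNAs (45.7%), and miR-223 had an interval that included 1. The median FC of the 7 was 1.48, against 0.897 for the 162 miRNAs, or 0.57 against -0.16 on the log2 scale. In the order of FC among the 162 miRNAs miR-462 was at place 1, miR-146a at 5, miR-21 at 6, miR-155 at 7, miR-146b at 11, miR-223 at 123 and miR-150 at 147. A FC of at least 1.8, the threshold used in the study, was reached by miR-462 alone of the 7, while 3 of the 162 (1.85%) reached it. miR-150 was lower by at least 1.8-fold, as were 16 of the 162 (9.88%). In either direction these were 2 of the 7, against 19 of the 162 (11.7%). The 162 leave out 11 miRNAs, none of the 7 among them, that were at 0 in MO-Tbx5a embryos and above 0 in MO-Ct embryos. Counted as lower, these would raise the shares of lower miRNAs given here.

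**Figure D1:**
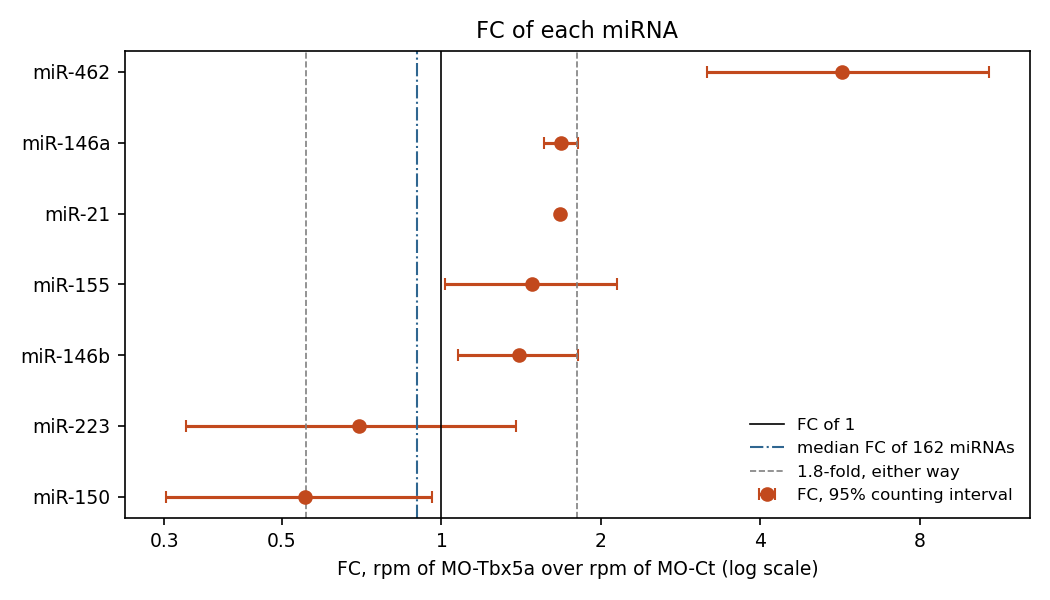
FC of each of the 7 miRNAs (points) with its 95% counting interval (bars), on a log axis, from 1 library a condition. The intervals of 5 miRNAs lie above 1, that of miR-223 includes 1, and miR-150 has 0.552; the dash-dotted line is the median FC of 162 miRNAs (0.897) and the dashed lines mark 1.8-fold in either direction.

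miR-21, the most abundant of the 7, had 7157 times the rpm of miR-223, the least abundant, in MO-Tbx5a embryos, and 6359 times that of miR-462, the least abundant in MO-Ct embryos. miR-21 made up 98.2% of their summed rpm in MO-Tbx5a embryos and also 98.2% in MO-Ct embryos. It was 64.4 times as abundant as miR-146a, the next of them, in MO-Tbx5a embryos and 64.8 times in MO-Ct embryos. Only miR-21 and miR-146a were above 200 rpm, the minimum that the study used, in either library, and the other 5 were below the median miRNA, which had 427 rpm in MO-Tbx5a embryos and 509.5 rpm in MO-Ct embryos. The FC of the 5 therefore rest on far fewer reads than that of miR-21. The level interval of each of these 5 overlapped those of 14 to 26 other miRNAs, so their places in the order of abundance are loose.

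**Figure D2:**
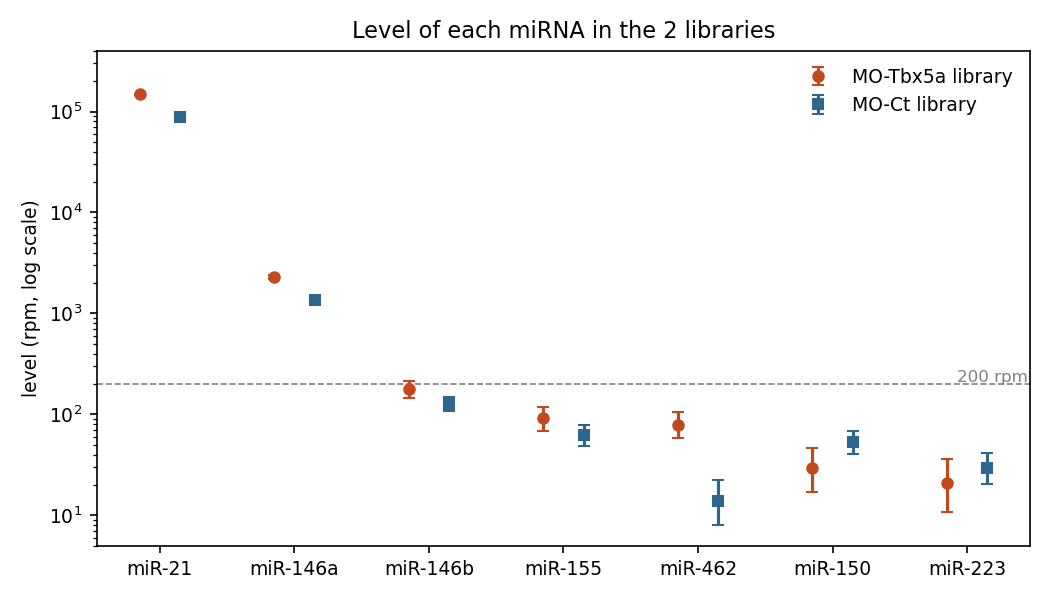
Level of each miRNA in rpm (log axis) in MO-Tbx5a embryos (circles) and MO-Ct embryos (squares), with 95% counting intervals as bars. miR-21 and miR-146a lie above the dashed line at 200 rpm in both libraries, and the intervals of the libraries are apart for miR-462 (79.3 rpm in MO-Tbx5a embryos and 13.9 rpm in MO-Ct embryos).

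miR-21 had 148003 rpm (147090 to 148919, 85888 reads) in MO-Tbx5a embryos, against 88456 rpm (87937 to 88976, 101738 reads) in MO-Ct embryos. Its FC was 1.67 (1.66 to 1.69), which is above 1 and below the threshold of 1.8. miR-21 took 14.8% of all assigned reads in MO-Tbx5a embryos, against 8.85% in MO-Ct embryos. It held place 3 in the order of abundance of both libraries, behind miR-9 and miR-206, and its interval overlapped that of no other miRNA. In MO-Tbx5a embryos miR-21 came close to the muscle miRNA miR-206, which had 154331 rpm there. In MO-Ct embryos miR-206 had 143278 rpm and was well above miR-21. miR-430b, which belongs to a family that clears maternal transcripts, came next below miR-21 in MO-Ct embryos with 59616 rpm, while the skin miRNA miR-203b came next in MO-Tbx5a embryos with 52417 rpm.

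In rpm miR-21 had the largest difference of all 173 miRNAs, 59547 rpm more in MO-Tbx5a embryos than in MO-Ct embryos. The 53 miRNAs with a FC above 1 gained 88427 rpm together, and miR-21 accounted for 67.3% of this sum. The next gains were 11053 rpm for miR-206, 8836 rpm for miR-203b and 1347 rpm for miR-22a, followed by 934 rpm for miR-146a. The other members with a FC above 1 gained 1.22% of the sum together, miR-146a included. The rpm of a library add up to a fixed total, so a higher share of miR-21 goes with a lower summed rpm of all other miRNAs. The ratio of that sum, MO-Tbx5a over MO-Ct, was 0.935 and follows from the rpm of miR-21. The median FC of the 162 miRNAs was lower, at 0.897. Whether miR-21 rose or other miRNAs fell in amount cannot be told from rpm. With the miR-21 reads left out of the total, miR-146a had a FC of 1.802, at the threshold.

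**Figure D3:**
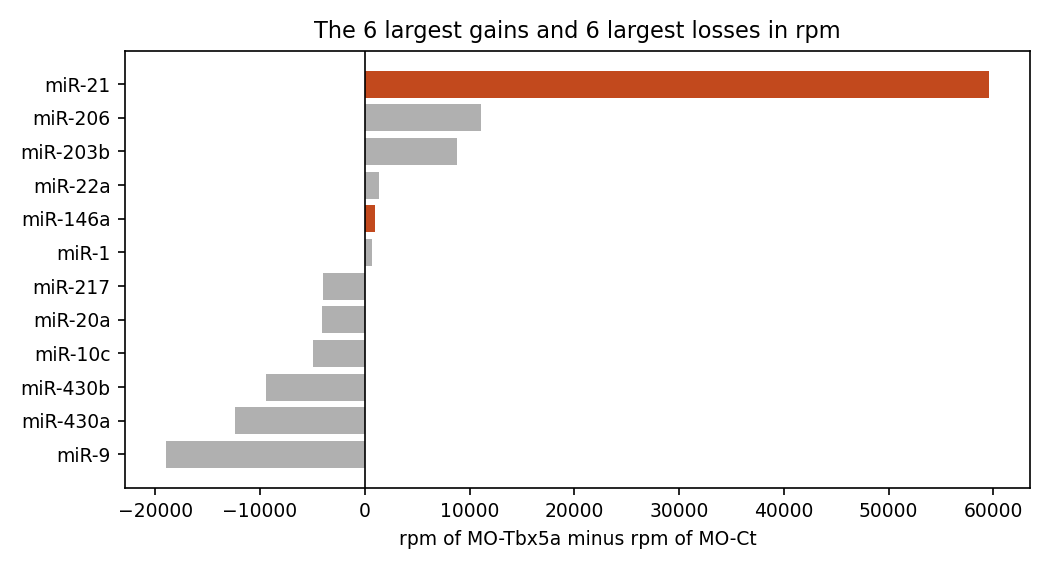
Difference in rpm, MO-Tbx5a minus MO-Ct, for the 6 miRNAs with the largest gain and the 6 with the largest loss of all 173; miR-21 and miR-146a are coloured and the others are grey. The bar of miR-21 (59547 rpm) is far longer than that of miR-206 (11053 rpm), and the largest loss is that of miR-9, at -18940 rpm.

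miR-146a had 2299 rpm (2177 to 2425, 1334 reads) in MO-Tbx5a embryos, against 1365 rpm (1298 to 1434, 1570 reads) in MO-Ct embryos. Its FC of 1.68 (1.56 to 1.81) had an interval that reached across the threshold. It was at place 39 in the order of abundance of MO-Tbx5a embryos, against place 62 in MO-Ct embryos. Its level was not distinguishable by counting error from those of its neighbours, miR-143 and miR-25 in MO-Tbx5a embryos and miR-125c and miR-196a in MO-Ct embryos. miR-146b had 177 rpm (145 to 215, 103 reads) in MO-Tbx5a embryos, against 127 rpm (107 to 149, 146 reads) in MO-Ct embryos. Its FC of 1.40 (1.08 to 1.81) was in the same direction, although its level intervals overlapped between the libraries.

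miR-146a and miR-146b are close in sequence, and an annotation that allowed mismatches could have divided reads between them. The FC of miR-146a was 1.20 times that of miR-146b, with an exact conditional interval of 0.919 to 1.58 that includes 1. The reads of this pair thus do not separate their FC, which could differ by up to 1.58 times within counting error. miR-146a was 13.0 times as abundant as miR-146b in MO-Tbx5a embryos and 10.8 times in MO-Ct embryos. With the pair summed, the FC was 1.66, set almost wholly by miR-146a.

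Among the 107 miRNAs above 200 rpm in both libraries, miR-146a was the one with the FC nearest to that of miR-21, at a distance of 0.0093 on the log2 scale. The next were miR-129, with a FC of 1.45 (1.23 to 1.71), and miR-125c, with a FC of 1.36 (1.26 to 1.47). miR-21 and miR-146a had overlapping intervals, miR-129 overlapped with both, and miR-125c was below both. With 1 library a condition this likeness rests on a single ratio for each miRNA. The median FC of the same 107 miRNAs was 0.910, which is -0.14 as log2. Relative to it miR-21 had a FC of 1.84 and miR-146a of 1.85, both past the threshold.

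**Figure D4:**
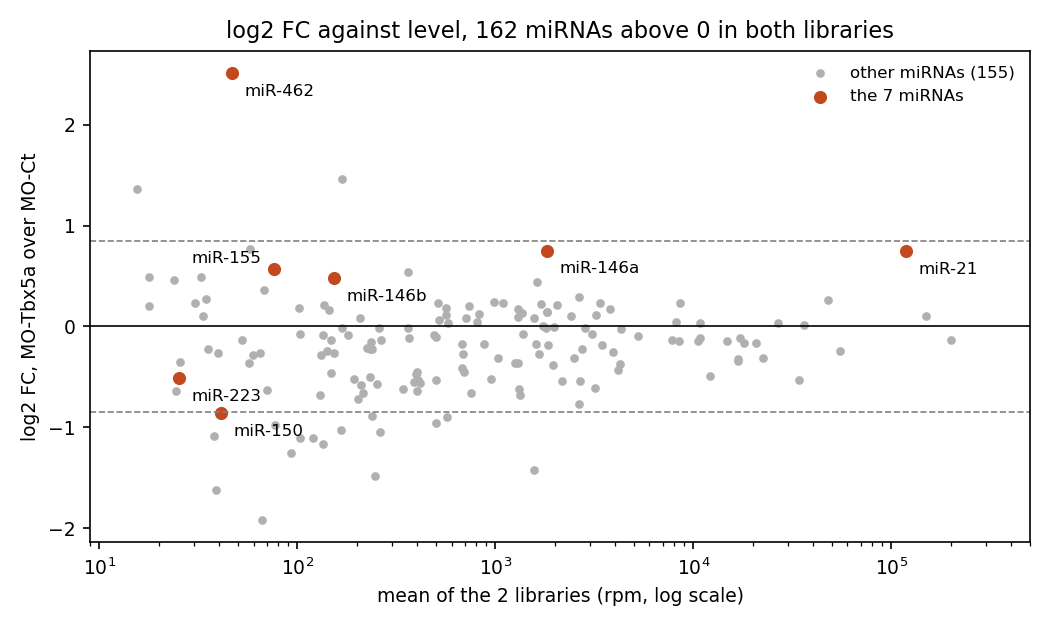
log2 FC (MO-Tbx5a over MO-Ct) of the 162 miRNAs above 0 in both libraries against their mean level in rpm (log axis), with the 7 miRNAs coloured and the 155 others grey; dashed lines mark 1.8-fold. miR-146a and miR-21 (FC of 1.68 and 1.67) stand above every other miRNA over 200 rpm in both libraries, and the widest scatter lies among miRNAs of low level.

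miR-462 was the miRNA with the highest FC of the 162. It had 79.3 rpm (58.0 to 106, 46 reads) in MO-Tbx5a embryos, against 13.9 rpm (7.95 to 22.6, 16 reads) in MO-Ct embryos. The MO-Tbx5a library thus held more reads of miR-462 although the depth of MO-Ct was 1.98 times that of MO-Tbx5a. The FC was 5.70 (3.17 to 10.8), and its whole interval was past the threshold, but its level was under 200 rpm in both libraries. miR-462 was at place 134 in the order of abundance of MO-Tbx5a embryos, against place 169 of 173 in MO-Ct embryos. Of the 28 miRNAs with a mean below 100 rpm, the median FC was 0.844, and 2 reached a FC of 1.8, miR-462 being one of them. Another 6 of the 28, miR-150 among them, were lower by at least 1.8-fold. Among all 162 miRNAs 3 were higher and 16 lower by this fold, so low-level miRNAs passed it more often. No miRNA above 200 rpm in both libraries came near miR-462, the closest being miR-146a at a distance of 1.76 on the log2 scale. Without that minimum the next were miR-34, with a FC of 2.75 (2.12 to 3.58), and miR-489, with 2.58 (1.04 to 6.56). Both intervals overlapped that of miR-462.

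miR-155, a miRNA of activated leukocytes, had 91.3 rpm (68.4 to 119, 53 reads) in MO-Tbx5a embryos, against 61.7 rpm (48.2 to 77.9, 71 reads) in MO-Ct embryos. Its FC was 1.48 (1.02 to 2.14), so that the interval excluded 1 narrowly and included 1.8. miR-150 had 29.3 rpm (17.1 to 46.9, 17 reads) in MO-Tbx5a embryos, against 53.0 rpm (40.6 to 68.1, 61 reads) in MO-Ct embryos. Its FC was 0.552 (0.302 to 0.958), just past 0.556, the lower 1.8-fold threshold. This interval included 0.897, the median FC of the 162 miRNAs, so miR-150 was lower than in MO-Ct embryos but not distinguishably lower than the median miRNA. miR-223 had 20.7 rpm (10.7 to 36.1, 12 reads) in MO-Tbx5a embryos, against 29.6 rpm (20.5 to 41.3, 34 reads) in MO-Ct embryos. Its FC was 0.6996 (0.330 to 1.38), and at this depth a difference in either direction was not detectable. Its 12 reads were also close to 11, the lowest number above 0 listed in the MO-Tbx5a library.

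The miRNAs that mark leukocytes in the strict sense, miR-155, miR-150 and miR-223, thus had FC on both sides of 1. Their summed level was 141 rpm in MO-Tbx5a embryos, of which miR-155 had 91.3 rpm, and 144 rpm in MO-Ct embryos. The ratio of these sums was 0.979. No counting interval was computed for this ratio and its reads are few, so it cannot be placed against 1 or the median FC. The 6 miRNAs other than miR-21 had 2697 rpm together in MO-Tbx5a embryos, against 1650.2 rpm for MO-Ct. This was a FC of 1.63 (1.53 to 1.75), most of it from miR-146a.

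Other miRNAs of blood, vessels and tissues were set beside them. Of the erythroid miRNAs, miR-451 had 75.8 rpm in MO-Tbx5a embryos and 163 rpm in MO-Ct embryos, and its FC was 0.464 (0.326 to 0.647). miR-144 had 19.0 rpm in MO-Tbx5a embryos and 16.5 rpm in MO-Ct embryos, and its FC was 1.15 (0.493 to 2.54). The endothelial miR-126 and miR-126b had FC of 0.886 (0.782 to 1.00) and 0.927 (0.801 to 1.07). The median log2 FC of these 4 blood and vessel miRNAs was -0.14, close to the -0.16 of all 162 miRNAs above 0 in both libraries. By at least 1.8-fold 1 of the 4 was lower and 0 were higher, against 9.88% and 1.85% of the 162. The list medians as deposited that follow are likewise to be read beside -0.16 and not beside 0. In the 9 epithelial miRNAs the median log2 FC was 0.11, from miR-205 at a FC of 1.23 (1.15 to 1.30) to miR-200a at 0.859 (0.807 to 0.914) among those with at least 30 reads in each library. In the 5 muscle miRNAs it was -0.01 as deposited and 0.12 after division by the median FC of well measured miRNAs, from miR-206 at 1.08 (1.07 to 1.09) to miR-133b at 0.640 (0.538 to 0.757). The neural miR-9 and miR-124 had FC of 0.910 (0.904 to 0.917) and 0.683 (0.574 to 0.810), a median of -0.34. None of these tissue miRNAs reached the FC of miR-21 or miR-146a, and the part of tissue composition in the levels of the 7 miRNAs was not tested.

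Further miRNAs known in mammals as regulators of inflammatory signalling were taken as a list, the families of miR-9, miR-29, miR-124, miR-125, miR-132, miR-181, miR-199, miR-203, miR-212 and let-7. Of these, 19 miRNAs were listed, none of them from the families of miR-29 or miR-212. Above 0 in both libraries were 18, and 11 of these had a FC above 1, against 53 of the 162 miRNAs (32.7%). Their median log2 FC was 0.05, against -0.16 for the 162 miRNAs, and 0 reached a FC of 1.8 while let-7g was lower by more than 1.8-fold, at 0.490 (0.366 to 0.647). The highest was miR-132, with 72.4 rpm (42 reads) in MO-Tbx5a embryos and 42.6 rpm (49 reads) in MO-Ct embryos, its FC being 1.70 (1.10 to 2.62). let-7f was listed at 0 in MO-Tbx5a embryos and at 19.1 rpm in MO-Ct embryos. The lowest value above 0 in the MO-Tbx5a library was 11 reads, so a 0 there need not mean absence. Many of these miRNAs are also those of other tissues, miR-203 of the epithelium and miR-9 and miR-124 of the nervous system among them.

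The scaling decided on which side of 1.8-fold the abundant miRNAs lay. miR-21 ranged from 1.67 to 1.88 over 6 other ways of processing, miR-146a from 1.66 to 1.896 over 8, and miR-462 from 3.73 to 6.80. miR-150 ranged from 0.552 to 0.650 and was within 1.8-fold in all but 1 of its 8 alternatives, in which its value was the deposited one. After division by the median FC of well measured miRNAs or by the trimmed mean, 3 of the 7 were higher by at least 1.8-fold and 0 lower, while 3.7% of the 162 miRNAs were higher and 6.79% lower. With the threshold moved to 1.5-fold, 3 of the 7 were higher and 1 lower, against 3.7% and 17.3% of the 162. At 2-fold, 1 was higher and 0 lower, against 1.85% and 6.79%. The 54 FC values of single miRNAs from the other ways of processing all kept the direction of the deposited FC. This is no check, as the rescalings were too small to cross 1.

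**Figure D5:**
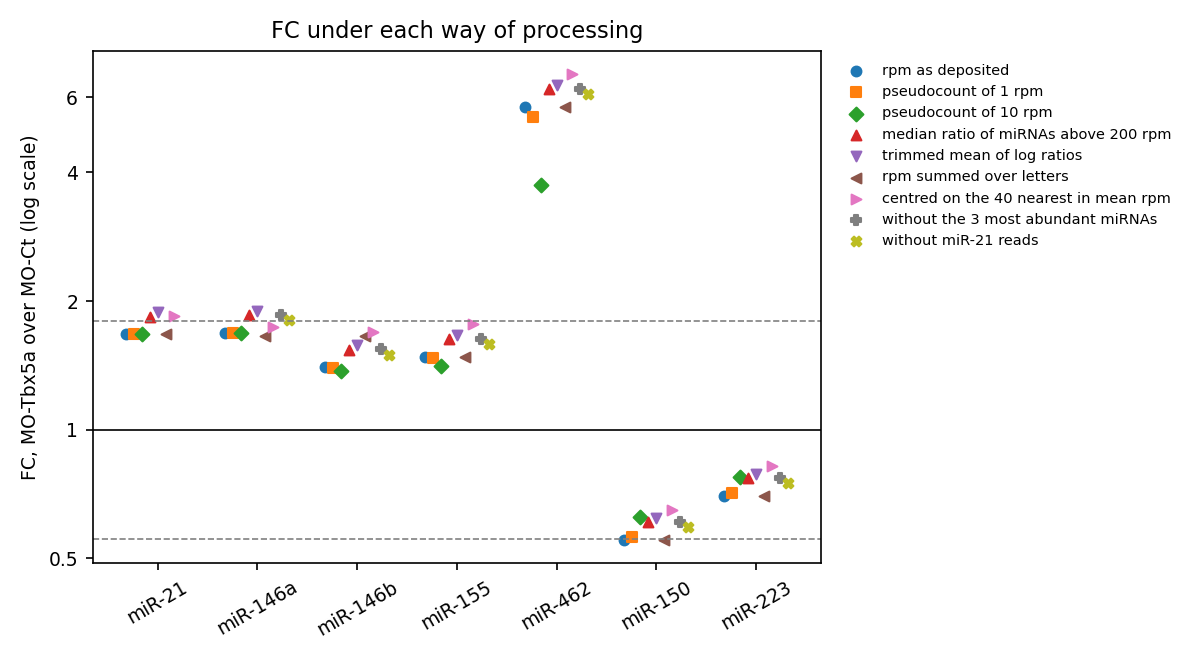
FC of each miRNA (log axis) as deposited and under each other way of processing, one symbol for each; dashed lines mark 1.8-fold. The symbols of miR-21 (1.67 to 1.88) and miR-146a (1.66 to 1.896) fall on both sides of 1.8, those of miR-462 (3.73 to 6.80) all lie above it.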

How the data were processed

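For each library the authors amplified adapter-ligated small RNAs from 1 µg of total RNA with 13 PCR cycles and sequenced inserts of 18 to 33 nt on an Illumina GAIIx. Sequences seen at least 30 times were kept and assigned in the CLC workbench to zebrafish miRBase 16.0, with a tolerance of 2 mismatches and of 2 extra bases on either side. The authors deposited 1 rpm value for each miRNA and library. Entries are named by hairpin, so the strands of a hairpin were not separated. The lowest value above 0 was 11 reads for MO-Tbx5a and 6 for MO-Ct, so the minimum of 30 was not applied to each entry and library.

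Read totals were recovered as the smallest from 50000 to 3000000 for which every rpm, within its rounding to 2 decimals, was a whole number of reads and all reads added up to the total. A count test was not run, as 1 library a condition leaves no spread to estimate. FC intervals are exact intervals of the part of a miRNA's reads found in the MO-Tbx5a library, turned into ratios.

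Members, lists and alternatives were chosen with earlier results of these data known. The miRNAs named are all listed members, the 3 nearest in log2 FC to miR-21 and to miR-462 above 200 rpm in each library, neighbours in abundance with overlapping intervals, and the highest and lowest of each list among those with at least 30 reads in each library. miR-144, let-7f, miR-34, miR-489 and the miRNAs with large differences in rpm were named after their values were seen.

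The alternatives were a pseudocount of 1 or 10 rpm, division by the median FC of well measured miRNAs (above 200 rpm in both libraries), division by the mean log ratio after trimming (30% of ratios and 5% of levels off each end), totals without the 3 most abundant miRNAs or without miR-21, rpm summed over letters, a minimum of 30 reads or 200 rpm, and a fold of 1.5 or 2. Division by the median FC of the 40 miRNAs closest in level was chosen after seeing the data. The recovery of read totals, the FC intervals and the call at 1.8-fold were checked on simulated read counts, the other steps were not. For the call, only miRNAs above 200 rpm in MO-Ct embryos were changed, by far more than 1.8-fold. Calls at lower levels or near the threshold, as for miR-462 and miR-150, were thus not checked. Gene names and neighbours were taken from RefSeq (GRCz12tu), and no coordinates are given because the deposited values have none. The software was Python 3.11.15 with SciPy 1.17.1, NumPy 2.4.6, Matplotlib 3.10.9 and pandas 2.3.3.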

Additional observations from a re-analysis of the deposited data

How the results depend on the processing

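No paired analysis was possible because there is 1 library a condition, which also leaves no replicate to omit. Of the 54 alternatives run for the FC of the 7 miRNAs, 54 kept its direction and 48 stayed within its counting interval. The kept direction is no check, as none of the rescalings was large enough to cross 1 and adding a pseudocount never does. Outside the interval were miR-21, with 1.84 after division by the median ratio, 1.88 after the trimmed mean and 1.84 relative to the 40 miRNAs closest in level, and miR-146a, with 1.85 after division by the median ratio, 1.896 after the trimmed mean and 1.86 when the 3 most abundant miRNAs were left out. The members past 1.8-fold numbered 2, 1 higher and 1 lower, against 19 of the 162 miRNAs, 3 higher and 16 lower. There was 1 with a pseudocount of 1 or 10 rpm, which was higher, against 18 and 15 of the 162. By the median ratio or the trimmed mean there were 3, all higher, against 17 of the 162, 6 higher and 11 lower. There were 2, both higher, without the 3 most abundant miRNAs (16 of 159 in all, 5 higher), without miR-21 reads (18 of 161, 5 higher) and relative to the 40 closest (14 of 162, 6 higher). With at least 30 reads in each library (13 of 142), or above 200 rpm in at least 1 library (8 of 117), 0 members were left past it, because these minimums remove miR-462 and miR-150. With a fold of 1.5 there were 4, 3 higher and 1 lower, against 34 of the 162, 6 higher and 28 lower. With a fold of 2 there was 1, which was higher, against 14 of the 162, 3 higher and 11 lower. The median log2 FC of the 7 was 0.57 and ran from 0.50 to 0.80. Of the 24 list alternatives 21 stayed between the median lower limit and the median upper limit of the intervals in the list. This range is not an interval of the list median itself. Outside it, the leukocyte median was 0.57 with at least 30 reads, which leaves miR-155 only, against -0.52. By the median ratio the muscle median was 0.12 and the neural median was -0.21, both also outside. Depth limits miR-223 and miR-150, with 12 and 17 reads in the MO-Tbx5a library, and miR-462, with 16 reads in the MO-Ct library.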
